A study of Homo sapiens with 2 samples.

Results

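Matrix-degrading metalloproteinases, the related cell-surface and secreted proteases, and their inhibitors were examined in BT549 cells that overexpress SNHG15. The genes were chosen by symbol: the matrix metalloproteinases (MMP), the ADAM and ADAMTS proteases, the ADAMTS-like proteins (ADAMTSL), the tissue inhibitors of metalloproteinases (TIMP) and RECK. Of 19029 genes in the authors' deposited table, 51 carried such a symbol: 14 MMP, 13 ADAM, 16 ADAMTS, 4 ADAMTSL, and 4 inhibitors (TIMP1, TIMP2, TIMP3 and RECK). BT549 is a permanent line grown from a human breast carcinoma, with the appearance of mesenchymal cells. One group carried an SNHG15 overexpression construct and the other a control vector, named pcIp2 in the labels. Both groups share the cell line and the culture medium, and the labels do not say whether either is a clone or a pool. SNHG15 yields a long non-coding RNA with a small nucleolar RNA in one of its introns.

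With 1 library in each group, replicates were lacking, and no p-value was computed. The SNHG15 library held 16570496 counts and the vector library 20799017. Counts were scaled to the library size as CPM with TMM factors, and each ratio (SNHG15 over vector library) carries an exact 95% interval that covers counting error only. SNHG15 itself stood at 1997 CPM with overexpression and at 23.3 CPM with the vector, a ratio of 85.6 (78.1 to 94.0). Of 5 mesenchymal markers, VIM, an intermediate filament, stood at 1998 and 1993 CPM. CDH2 and SPARC had ratios of SNHG15 to vector of 5.28 and 1.78, and FN1 and ZEB1 ratios of 0.555 and 0.590. Of 5 epithelial markers, CDH1 had 12 and 11 counts, CLDN4 had 3 and 1, and the other 3 were not analysed here. In these bulk libraries, fewer cells of a type and less RNA per cell cannot be told apart.

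MMPs are zinc proteases that are secreted or held at the cell surface as inactive precursors and together cleave most proteins of the extracellular matrix. ADAM proteases are membrane proteins that release the outer domains of growth factors, receptors and adhesion molecules, a process called shedding. ADAMTS proteases are secreted and process procollagens, proteoglycans and other matrix glycoproteins, while the ADAMTS-like proteins resemble them but lack the protease domain. TIMPs block the active site of MMPs, and TIMP3, which binds to the matrix, also inhibits several ADAM and ADAMTS proteases. RECK is a membrane-anchored glycoprotein that restrains MMPs at the cell surface.

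Of the 51 genes, 35 reached a mean of 1 CPM over both libraries and were compared. A gene was called higher or lower if its ratio was at least 1.5-fold from 1 and the interval did not include 1. By this rule 11 of the 35 (31.4%) were lower in the SNHG15 library, where 12.2% of all 12934 genes compared were lower. Only 2 of the 35 (5.71%) were higher, against 13.3% of all genes compared. Under the stricter rule that the whole interval lie past 2-fold, TIMP3, ADAMTS15 and ADAMTS2 were lower (8.57%, against 2.45% of all genes) and ADAMTSL1 was higher (2.86%, against 2.20%). Members were picked with earlier results of these data known, and these shares describe this pair of libraries.

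The median log2 ratio of the 35 was -0.13, beside 0.02 for all genes compared. Library totals as the scale, without TMM factors, moved the median of all genes to 0.13 and that of the members to -0.01. In the vector library the 51 genes took 0.344% of all counts, and in the SNHG15 library 0.257%. The difference came unevenly from the families. Summed MMP counts had a ratio of 0.655 (0.641 to 0.670), summed ADAMTS counts 0.483 (0.468 to 0.497), and summed ADAM counts 0.916 (0.892 to 0.940). Summed inhibitor counts had a ratio of 0.700 (0.685 to 0.715), and summed ADAMTS-like counts went the other way, with a ratio of 2.23 (1.98 to 2.51).

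**Figure D1:**
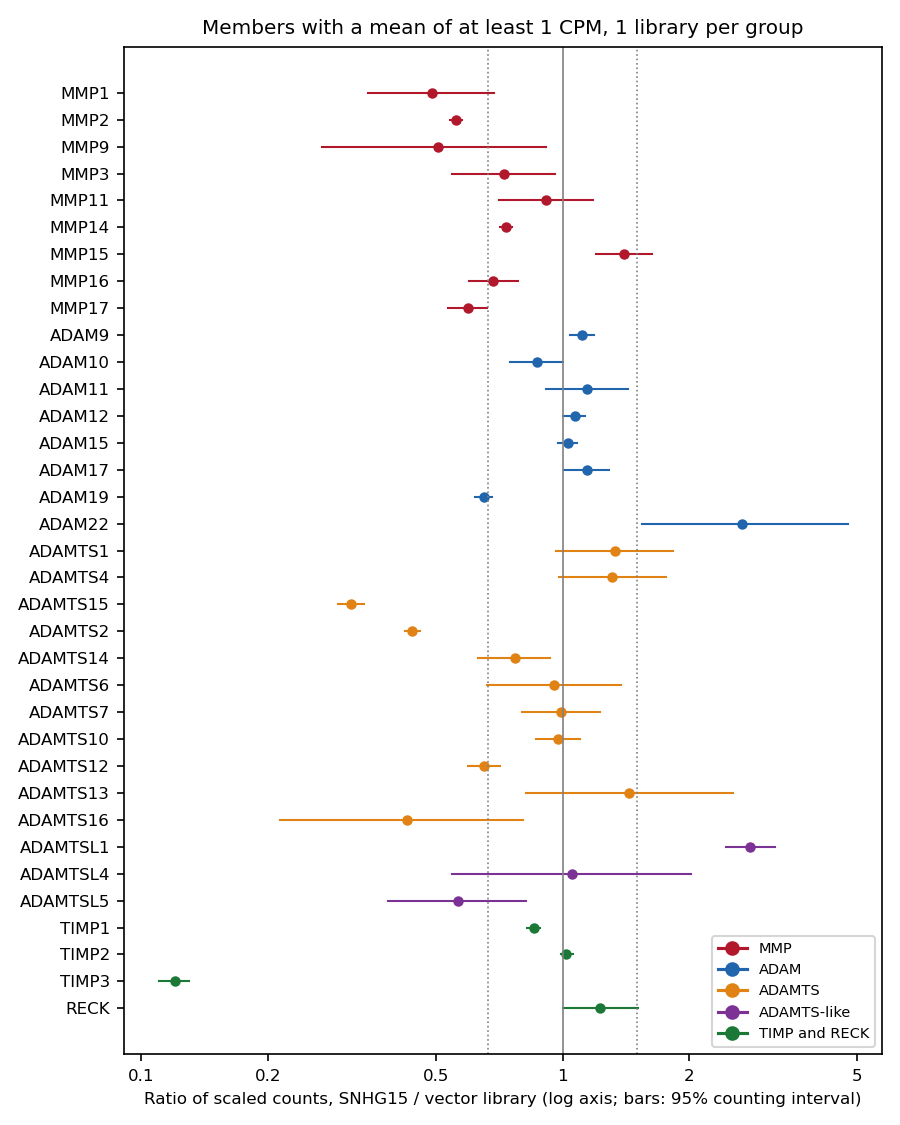
Scaled counts of the SNHG15 library divided by those of the vector library (log axis) for the 35 members compared, grouped by family, with bars for the 95% counting interval, a solid line at 1 and dotted lines at 1.5-fold in either direction. TIMP3 lies farthest to the left at 0.120, and ADAMTSL1 (2.79) and ADAM22 (2.66) lie farthest to the right.

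Among the inhibitors, TIMP3 differed most between the libraries, and it also differed most among all members compared. It had 660 counts (38.3 CPM) with SNHG15 and 6378 counts (319 CPM) with the vector, a ratio of 0.120 (0.110 to 0.130), or 8.35-fold lower. Its log2 ratio of -3.06 lay at percentile 0.278 of all genes compared. TIMP1, a secreted inhibitor that acts weakly on membrane-type MMPs, had 6225 counts against 8448, at 361 and 423 CPM (ratio 0.853, 0.825 to 0.882). TIMP2, which at low amounts helps MMP14 to activate MMP2, had 6290 counts against 7114 and stood at 365 and 356 CPM (ratio 1.02, 0.989 to 1.06). RECK had 200 counts against 188, at 11.6 and 9.41 CPM (ratio 1.23, 1.004 to 1.51). TIMP3 was thus low in the SNHG15 library while the other 3 inhibitors stayed within 1.5-fold. The 4 genes had a median log2 ratio of -0.10, which was 0.02 with library totals and 0.03 with the trend on transcript GC content removed.

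The authors' FPKM values, which are per length and so allow levels of different genes to be compared, gave TIMP1 the highest level of the 51 genes in both libraries, at 166 FPKM with SNHG15 and 180 FPKM with the vector. TIMP3 had rank 3 in the vector library at 66.6 FPKM and rank 10 in the SNHG15 library at 8.65 FPKM. TIMP2 had rank 6 with the vector at 36.2 FPKM and rank 3 with SNHG15 at 40.2 FPKM. TIMP3 therefore made up 23.6% of the summed TIMP level with the vector and 4.02% with SNHG15. The summed counts of TIMP1 and TIMP2 were closer between the libraries, with a ratio of 0.931 (0.909 to 0.953).

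The 300-base promoter windows of TIMP3 and TIMP1 are shown because these inhibitors stand at the extremes of the family, TIMP3 with the largest difference and TIMP1 with the highest level. They come from RefSeq (GRCh38.p14) and run from 250 bases before to 50 bases after the start of transcription listed there. They are given on the gene's strand and carry each CG dinucleotide in capitals. The TIMP3 window lies on the plus strand at chr22:32801455-32801754 and the TIMP1 window on the plus strand at chrX:47582186-47582485. The authors' locus for TIMP1 begins at 47582313, before the RefSeq start.
TIMP3: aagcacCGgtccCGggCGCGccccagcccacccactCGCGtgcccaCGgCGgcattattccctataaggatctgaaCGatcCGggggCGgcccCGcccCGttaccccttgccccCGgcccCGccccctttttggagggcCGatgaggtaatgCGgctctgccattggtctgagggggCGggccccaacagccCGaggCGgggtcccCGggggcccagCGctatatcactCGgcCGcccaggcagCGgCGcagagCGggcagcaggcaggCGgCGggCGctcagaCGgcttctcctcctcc
TIMP1: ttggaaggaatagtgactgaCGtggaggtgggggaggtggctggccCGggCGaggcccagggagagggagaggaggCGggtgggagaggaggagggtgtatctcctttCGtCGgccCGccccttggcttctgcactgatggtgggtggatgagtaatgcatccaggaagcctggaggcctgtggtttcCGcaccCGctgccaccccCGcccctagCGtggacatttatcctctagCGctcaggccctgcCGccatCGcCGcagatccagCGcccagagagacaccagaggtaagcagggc
The TIMP3 window held 31 CG dinucleotides and the TIMP1 window 16, beside a median of 27 over 9593 promoters of genes compared. No methylation or binding was measured in these libraries.

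Among the MMPs, 4 of the 9 compared were lower by the 1.5-fold rule and 0 were higher. Of all genes compared, 12.2% were lower and 13.3% were higher. The family had a median log2 ratio of -0.54, and 8 of the 9 ratios lay below 1. The gelatinase MMP2, which degrades denatured collagen and basement membrane collagen, had 4743 counts against 9845, at 275 and 493 CPM (ratio 0.558, 0.539 to 0.577). The other gelatinase, MMP9, was rare, with 17 counts against 39 (ratio 0.505, 0.268 to 0.913). Both gelatinases were low in the SNHG15 library, MMP2 on deep counts and MMP9 on few. With the GC trend removed MMP9 had a ratio of 0.607, and its interval came to include 1, so that it was no longer called. The interstitial collagenase MMP1, which cuts fibrillar collagen, had 50 counts against 118, at 2.90 and 5.91 CPM (ratio 0.491, 0.345 to 0.688).

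Of the stromelysins, which cleave a broad range of matrix proteins, 0 of 2 compared were called in either direction. MMP3 had 84 counts against 134 (ratio 0.726, 0.546 to 0.960), short of 1.5-fold, although it was called lower with the GC trend removed. MMP11, a stromelysin activated inside the cell by furin, had 109 counts against 138 (ratio 0.914, 0.705 to 1.18), so that its interval included 1, and a ratio of 1.09 with the GC trend removed. MMP10 had 0 counts against 6, with an upper bound of 0.983 on its ratio. MMP10, MMP1 and MMP3 lie next to each other on chromosome 11, from 102770503 to 102843803 (hg38), with gaps of 9.29 and 37.6 kb between them. Each of these neighbours had fewer scaled counts in the SNHG15 library, and the 8 other compared genes within 1 Mb of MMP1, MMP3 among them, had a median log2 ratio of -0.26.

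Membrane-type MMPs sit on the cell surface. MMP14, the main surface activator of MMP2, had 6059 counts against 9557, at 351 and 478 CPM (ratio 0.734, 0.711 to 0.758), short of 1.5-fold. MMP17, attached by a lipid anchor, had 501 counts against 975 (ratio 0.595, 0.533 to 0.663) and was called lower. MMP16 had 350 counts against 592 (ratio 0.684, 0.598 to 0.782) and lay just outside the rule. It was called lower with DESeq2 size factors and with the GC trend removed. MMP15 went the other way, with 389 counts against 322, at 22.5 and 16.1 CPM (ratio 1.40, 1.20 to 1.63). By library totals, and with the GC trend removed, MMP15 was called higher, at 1.52 and 1.70. MMP17 had a ratio of 0.711 with the GC trend removed and then missed the rule.

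**Figure D2:**
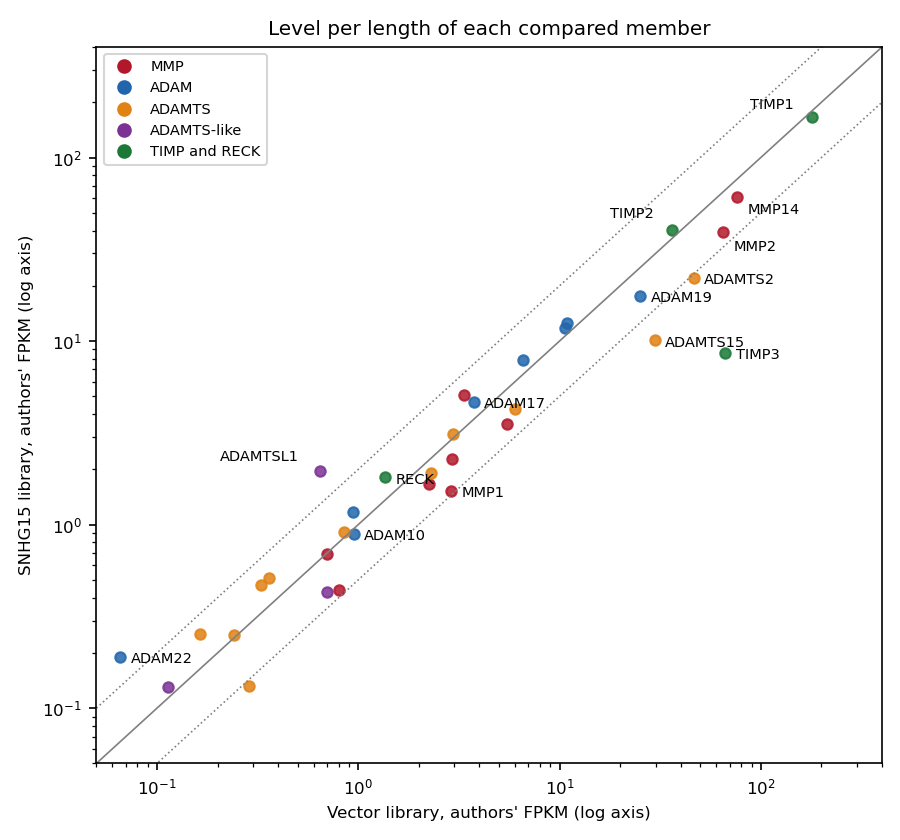
Authors' FPKM of each of the 35 compared members in the vector library (x, log axis) and the SNHG15 library (y, log axis), 1 point per gene, with a solid line at equal levels and dotted lines at 2-fold. TIMP3 lies far below the line at 66.6 and 8.65 FPKM, ADAMTS2 and ADAMTS15 lie near or below the lower dotted line, and TIMP2 and ADAM17 lie slightly above equality.

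MMP14 and MMP2 were the most abundant proteases per length in both libraries, MMP14 at 60.7 FPKM against 76.3 and MMP2 at 39.3 FPKM against 65.1. The 2 genes took 86.7% of the summed MMP level with SNHG15 and 88.3% with the vector. Set beside the inhibitors, the summed TIMP level was 1.86 times the summed MMP level with SNHG15 and 1.76 times with the vector. Against all MMP, ADAM and ADAMTS genes, ADAM members without protease activity included, it was 0.990 times and 0.915 times. TIMP1, at 166 FPKM with SNHG15 and 180 FPKM with the vector, was the largest part of this TIMP level. The single pairs that follow were not planned beforehand. As TIMP3 differed most among the members compared and ADAM17 by little, their quotient had to differ widely between the libraries. TIMP2 per MMP14 was 0.662 with SNHG15 and 0.474 with the vector, and TIMP3 per ADAM17, a protease that TIMP3 inhibits, was 1.86 and 17.8. These quotients of deposited FPKM describe RNA and carry no interval.

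**Figure D3:**
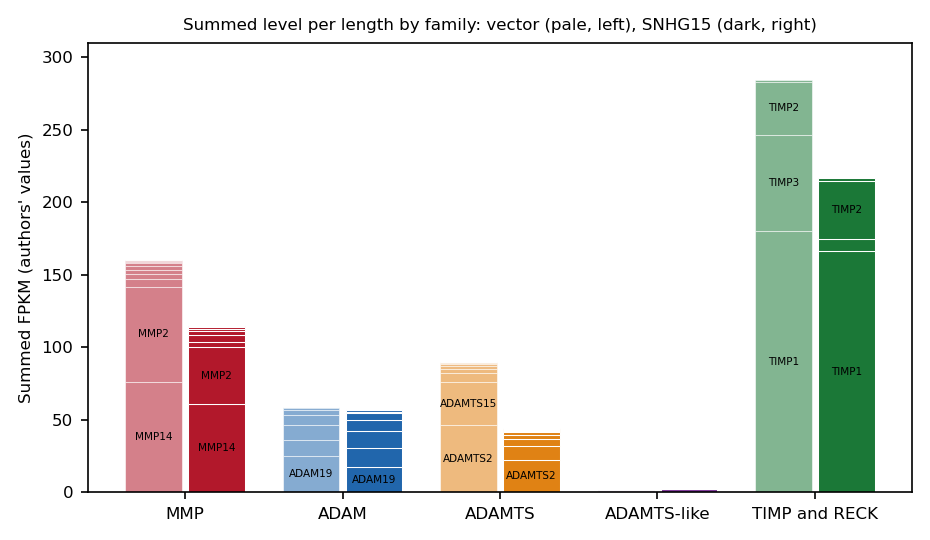
Summed authors' FPKM of each family (y, from 0) in the vector library (pale, left bar) and the SNHG15 library (dark, right bar), with white lines between genes and names on the thicker slices. The MMP bar goes from 160 to 115 FPKM, the ADAMTS bar from 89.7 to 44.4, the TIMP and RECK bar from 284 to 217, and the ADAM bars are 59.0 and 57.2.

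Among the ADAMs, 6 of the 8 compared were neither higher nor lower, and the family had a median log2 ratio of 0.12 (0.00 with the GC trend removed). ADAM10 and ADAM17 are the principal sheddases of Notch receptors and of epidermal growth factor receptor ligands. ADAM10 had 338 counts against 451, at 19.6 and 22.6 CPM (ratio 0.868, 0.751 to 1.001). ADAM17 had 550 counts against 557, at 31.9 and 27.9 CPM (ratio 1.14, 1.01 to 1.29), which became 0.995 with the GC trend removed. Both sheddases therefore differed by little. The reads of ADAM17 may be mixed with those of IAH1, which overlaps it on the opposite strand with 206 counts against 458, as no source used here says whether strand was kept.

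ADAM19, a sheddase of neuregulins, was the ADAM called lower. It had 2563 counts against 4574, at 149 and 229 CPM (ratio 0.649, 0.618 to 0.681), just inside the 1.5-fold rule, and its ratio missed it by library totals (0.703) and with the GC trend removed (0.680). ADAM12, which like ADAM19 belongs to the meltrin group, had 2199 counts against 2390 (ratio 1.07, 1.005 to 1.13). ADAM15 had 2645 counts against 2986 (ratio 1.03, 0.973 to 1.08). ADAM9 had 1608 counts against 1678 (ratio 1.11, 1.04 to 1.19), or 0.971 with the GC trend removed. Of the 4 abundant ADAMs besides the sheddases above, ADAM19 alone stood apart from equality by 1.5-fold.

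ADAM22, ADAM23 and ADAM11 form a group without protease activity that binds secreted LGI proteins and is known mainly from the nervous system. ADAM22 had 46 counts against 20, at 2.67 and 1.001 CPM (ratio 2.66, 1.54 to 4.75), and was called higher. ADAM23 had 24 counts against 3 (ratio 9.26, 2.81 to 48.0), and its mean of 0.771 CPM was under the minimum. ADAM11 had 159 counts against 161 (ratio 1.14, 0.912 to 1.43). ADAM22 and ADAM23 were thus rare in both libraries and rarer in the vector library.

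Among the ADAMTS proteases, 4 of 11 compared were lower and 0 were higher, against 12.2% and 13.3% of all genes compared. The family had a median log2 ratio of -0.06 (0.05 by library totals). ADAMTS15, a protease that cleaves versican and aggrecan, had 953 counts against 3503, at 55.2 and 175 CPM (ratio 0.315, 0.293 to 0.338), or 3.18-fold lower. ADAMTS1 and ADAMTS4, proteases of the same proteoglycan-cleaving class, did not share this difference. ADAMTS1 had 86 counts against 75 (ratio 1.33, 0.963 to 1.83), and ADAMTS4 had 103 counts against 91 (ratio 1.31, 0.979 to 1.76). The class had a median log2 ratio of 0.38 but a mean of -0.29, and its summed counts were 2.73-fold lower (2.55 to 2.91), since ADAMTS15 supplied most of them. ADAMTS8, 20.0 kb from ADAMTS15 on chromosome 11, was under the minimum at a mean of 0.257 CPM. It had 8 counts against 1 (ratio 9.26, 1.24 to 411). These adjacent genes thus had ratios on opposite sides of 1, that of ADAMTS8 on few reads.

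ADAMTS2, which removes the amino-terminal propeptide of fibrillar procollagens, was the most abundant ADAMTS protease per length, at 22.1 FPKM with SNHG15 and 46.4 FPKM with the vector. It had 3087 counts against 8118, at 179 and 406 CPM (ratio 0.440, 0.422 to 0.459), or 2.27-fold lower. With the GC trend removed its log2 ratio was -1.01 and its interval no longer lay wholly past 2-fold. ADAMTS14, another procollagen N-propeptidase, had 172 counts against 259 (ratio 0.769, 0.630 to 0.936). ADAMTS3, the remaining gene of this class, had 4 counts against 6. The procollagen-processing genes were thus led in level and in difference by ADAMTS2. The 20 compared genes within 1 Mb of ADAMTS2 had a median log2 ratio of 0.29.

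Of the other ADAMTS proteases, ADAMTS12, which degrades a cartilage matrix glycoprotein, had 790 counts against 1404, at 45.8 and 70.3 CPM (ratio 0.651, 0.596 to 0.711), just inside the rule. By library totals its ratio was 0.706 and it was not counted. ADAMTS7, its close relative, had 162 counts against 189 (ratio 0.992, 0.799 to 1.23). ADAMTS16 had 14 counts against 38 (ratio 0.427, 0.213 to 0.805) and was called lower on few reads. ADAMTS10 and ADAMTS6, which act on fibrillin microfibrils, had ratios of 0.974 (0.864 to 1.10) and 0.956 (0.661 to 1.38). ADAMTS13, the protease of von Willebrand factor, had 31 counts against 25 (ratio 1.44, 0.820 to 2.54).

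ADAMTSL1, a secreted matrix protein also called punctin, was the member with the largest excess in the SNHG15 library among those compared. It had 742 counts against 308, at 43.0 and 15.4 CPM (ratio 2.79, 2.44 to 3.20), and lay at percentile 97.9 of all genes compared. ADAMTSL5, which binds microfibrils, was lower, with 44 counts against 90 (ratio 0.566, 0.385 to 0.820). With the GC trend removed ADAMTSL5 was not called lower. ADAMTSL4 had 20 counts against 22 (ratio 1.05, 0.545 to 2.02). The ADAMTS-like genes therefore included members on both sides of 1.

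Promoter windows of RefSeq were matched for 30 of the 51 genes, 22 of them compared. The AP-1 site TGANTCA, which reads the same on both strands apart from its central base, was searched because AP-1 is a known activator of several MMP genes. It occurred in 2 of the 30 windows, those of ADAMTS12 and MMP10, and in 7.76% of all 27305 promoters. Of the 22 windows of compared members, 1 (4.55%) held it, beside 4.19% of the promoters of all genes compared. An ETS form, GGAAGT or its reverse complement ACTTCC, occurred in 3 of the 30 and in 23.2% of all promoters. This ETS form occurred in 2 of the 22 (9.09%) and in 27.8% of the promoters of genes compared. The windows of MMP1, MMP2, MMP3, MMP9, MMP17, ADAMTS15 and ADAMTS16 were not analysed here. These include every MMP called lower, so the motif counts do not cover those genes. The windows of ADAMTSL1, the gene with the largest excess, and of ADAMTS12, which holds the AP-1 letters, are printed as the counterparts of the TIMP windows above. Capitals mark CG dinucleotides in the first (plus strand, chr9:18473903-18474202) and the AP-1 letters in the second (minus strand, chr5:33891941-33892240).
ADAMTSL1: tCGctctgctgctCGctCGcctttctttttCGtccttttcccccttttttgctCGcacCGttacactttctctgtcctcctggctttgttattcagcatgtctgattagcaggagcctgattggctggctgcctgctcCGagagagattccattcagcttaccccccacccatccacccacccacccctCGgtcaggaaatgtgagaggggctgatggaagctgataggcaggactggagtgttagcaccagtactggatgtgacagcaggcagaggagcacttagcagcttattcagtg
ADAMTS12: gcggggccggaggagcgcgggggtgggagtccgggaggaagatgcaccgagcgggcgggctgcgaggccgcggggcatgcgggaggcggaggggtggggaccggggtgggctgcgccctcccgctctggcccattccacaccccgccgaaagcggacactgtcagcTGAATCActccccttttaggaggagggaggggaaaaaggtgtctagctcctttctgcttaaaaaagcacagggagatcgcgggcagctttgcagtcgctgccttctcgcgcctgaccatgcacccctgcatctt
The ADAMTSL1 window held 8 CG dinucleotides, and in the ADAMTS12 window the AP-1 letters begin 84 bases before the RefSeq start. The authors' loci begin at 18473894 for ADAMTSL1 and at 33892192 for ADAMTS12 (minus strand). The whole ADAMTSL1 window and the AP-1 letters of ADAMTS12 therefore lie inside these loci. A match is a description of the letters and not of binding.

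The 16 members under the minimum had at most 24 counts with SNHG15 and 12 with the vector. Besides ADAM23, those with at least 10 counts in either library were ADAM8 with 20 against 8 (ratio 2.89, 1.22 to 7.60), ADAMTS5 with 12 against 3 (ratio 4.63, 1.25 to 25.6), MMP24 with 2 against 12 (ratio 0.193, 0.0210 to 0.867) and ADAMTS17 with 9 against 11 (ratio 0.947, 0.347 to 2.51). MMP24 is overlapped on the opposite strand by MMP24OS, which had 2263 counts against 4173, and without strand information its few reads cannot be separated from that gene. Among the rest, 4 genes had 0 counts in the SNHG15 library (MMP10, MMP23B, ADAM28 and ADAM32) and 2 had 0 in the vector library (ADAM33 and ADAMTSL3). A count of 0 allows up to 3 counts, or 0.174 CPM with SNHG15 and 0.150 CPM with the vector.

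**Figure D4:**
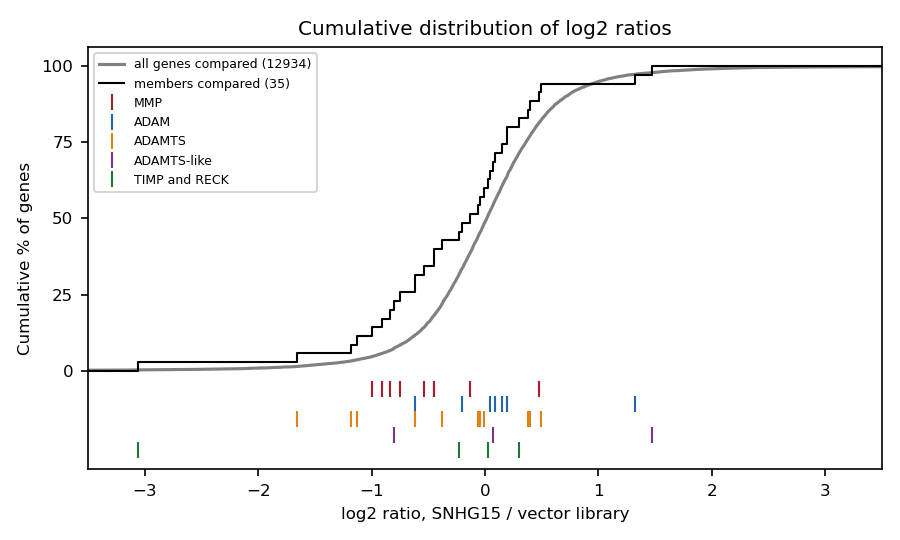
Cumulative percentage of genes (y) by log2 ratio, SNHG15 over vector (x) for all 12934 genes compared (grey) and the 35 members (black), with ticks for single members by family below the axis. The member curve lies to the left of the grey one over most of the range below 0, with TIMP3 at -3.06 and most MMP ticks left of 0.

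Other genes of the protease network were described from 6 lists. Of 33 genes compared, 4 were higher and 8 lower (background 13.3% and 12.2%), with a median log2 ratio of -0.21. The list of activators of protease precursors, which includes the urokinase receptor PLAUR, had 5 genes measured. All had ratios below 1, and 2 of them were called lower. PLAU, the urokinase that starts plasmin formation, had 3454 counts against 7923 (ratio 0.505, 0.485 to 0.525), and FURIN, the convertase that removes the prodomain of membrane-type MMPs and most ADAM and ADAMTS proteases, had 1390 counts against 2776 (ratio 0.580, 0.543 to 0.618). Of the other inhibitors and protease modulators, 4 of 5 were lower. TFPI2, a Kunitz inhibitor of serine proteases that resides in the matrix, had 859 counts against 2506 (ratio 0.397, 0.367 to 0.429). CST3, the cysteine protease inhibitor cystatin C, had 1297 counts against 2634 (ratio 0.570, 0.533 to 0.609), and the proteoglycan SPOCK1 had 272 against 565 (ratio 0.557, 0.480 to 0.645).

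Regulators of ADAM10 and ADAM17 went in both directions, with 3 of 9 higher and 1 lower (background 13.3% and 12.2%). TSPAN14, TSPAN15 and TSPAN5, tetraspanins that escort ADAM10 to the surface, had ratios of 1.96 (1.84 to 2.10), 2.11 (1.58 to 2.84) and 1.54 (1.41 to 1.70). RHBDF1, an iRhom that escorts ADAM17, had 282 counts against 588 (ratio 0.555, 0.480 to 0.641). Among the shed ligands and receptors, 1 of 5 was lower: AREG, the amphiregulin precursor cleaved by ADAM17, had 2 counts against 63 (ratio 0.0368, 0.00436 to 0.138). Of the surface proteins, TFRC, the transferrin receptor, was called higher (1 of 6), at 176 and 74.7 CPM, and BSG, a surface protein that induces MMPs, stood at 1309 and 1423 CPM. The list of other metzincins and related proteins had 3 genes compared (BMP1 and PAPPA, both proteases, and THSD4, an ADAMTS-like protein under another name), and 0 passed the rule in either direction.

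Some markers of other cell types also differed between the libraries. Of 5 haematopoietic markers, 3 had a row, while PTPRC and LYZ were not analysed here. CD68 had 68 counts against 387 (ratio 0.203, 0.155 to 0.264) and CD14 had 133 against 347 (ratio 0.444, 0.361 to 0.543). ITGAM had 8 against 6 (ratio 1.54, 0.470 to 5.40), so that its interval included 1. Of 5 fibroblast markers, 3 were measured. PDGFRA had 65 counts against 157 (ratio 0.479, 0.353 to 0.644) and FAP had 41 against 93 (ratio 0.510, 0.344 to 0.745). PDGFRB had 66 against 93 (ratio 0.822, 0.590 to 1.14), with an interval that included 1. Of 4 endothelial markers, KDR had 1 count in each library. Their part in the results for the proteases and inhibitors was not tested.

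In the authors' deposited table, 3 of the 51 genes were called higher (ADAMTSL1, ADAM22 and ADAM23; 5.88%, against 4.88% of all genes) and 3 lower (TIMP3, ADAMTS15 and ADAMTS2; 5.88%, against 3.27%). That table gave TIMP3 a log2 ratio of FPKM of -2.94, ADAMTS15 -1.55, ADAMTS2 -1.07, ADAMTSL1 1.60, ADAM22 1.53 and ADAM23 3.33. The authors' p-values rest on a variation that 1 library per group cannot estimate, and are not used here.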

How the data were processed

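RNA of BT549 cells was sequenced in 2 libraries, 1 per group, taken from the genotype in the labels. Raw counts per gene were deposited, as whole numbers, per the file headers. The authors' FPKM values, in the same table per the file headers, follow the library totals. The p-values deposited by the authors come from edgeR, per the name of their table. The deposited log2 ratio is that of the authors' FPKM values, with no prior count added. Per the submitters' processing notes, the reads were placed on hg38; the aligner, counter and annotation are not given in the sources used here.

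TMM factors (1.04 for the SNHG15 and 0.960 for the vector library) came from edgeR 4.0.16 in R 4.3.3. Ratios carry exact conditional-binomial (Clopper-Pearson) 95% intervals, which cover counting error only, as reads are not independent molecules. A prior count of 2 entered the log2 ratios. The comparison kept genes whose CPM averaged 1 or more. Transcript GC content came from GENCODE 29 (longest transcript), and its trend was removed by loess with a span of 0.5. Promoters came from RefSeq, using the first listed start of each gene. Protein sequences were not used here. Functions were tested on simulated data. Alternatives used library totals, size factors of DESeq2 1.42.0, other minimums (none, 5 CPM), FPKM with pseudocounts of 0.1 and 1, prior counts of 0.5 and 10, means, point ratios and removal of overlapping genes.

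Named genes were all inhibitors, the members past the 1.5-fold rule, the most abundant of each class, ADAM10 and ADAM17, and members with 10 or more counts under the minimum; the remaining compared members were given too. ADAMTS3, ADAMTS8, BSG and the members at 0 counts were named after their values were seen. The quotients of TIMP2 with MMP14 and of TIMP3 with ADAM17 were not planned beforehand. Members, lists and tests were chosen with earlier results of these data known.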

Additional observations from a re-analysis of the deposited data

How the results depend on the processing

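No paired analysis was possible because each group held 1 library, and for the same reason no replicate could be left out. Of the 155 values of counts, medians and sums recomputed under the alternatives, 116 stayed within their limits. The members counted as higher by the 1.5-fold rule numbered 2, but 6 with no minimum, 1 at a minimum of 5 CPM and 1 by FPKM with a pseudocount of 1. Those counted as lower numbered 11, but 7 at 5 CPM and 5 by FPKM with a pseudocount of 1. They numbered 9 by library totals and with the GC trend removed, 12 with DESeq2 size factors and 13 with no minimum. Median transcript GC content was 54.7% for the members compared and 49.2% for all genes compared. Past 2-fold, 1 was higher (2 with no minimum, 2 by the point ratio, 0 by FPKM with a pseudocount of 1) and 3 were lower (5 by the point ratio). The shares of all genes called under these alternatives are not reported here. These counts alone therefore do not show how the members stand beside all genes under each alternative.

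The median of the inhibitors changed sign, from -0.10 to 0.02 by library totals, 0.02 by FPKM with a pseudocount of 0.1 or 1, and 0.03 with the GC trend removed. It was -0.23 without TIMP2, which overlaps a gene of its strand, and -0.74 as a mean. The median of membrane-type MMPs, -0.50, was -0.37 and -0.30 by FPKM with pseudocounts of 0.1 and 1, -0.36 with the GC trend removed and -0.31 as a mean. For all MMPs, -0.54 became -0.32 by FPKM with a pseudocount of 1. For the ADAMs, 0.12 became 0.24 by library totals and 0.23 by FPKM with a pseudocount of 0.1. For the proteoglycanases, 0.38 became -0.64 at 5 CPM, where fewer genes remain, and -0.29 as a mean. The ADAMTS-like median of 0.07 became 1.47 at 5 CPM, where ADAMTSL1 alone remains.

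Summed MMP counts (ratio 0.655) gave 0.637 by DESeq2 size factors, 0.711 by library totals, 0.721 by FPKM and 0.737 without MMP2, which overlaps a gene of its strand. Summed ADAM counts (0.916) gave 0.890, 0.993, 0.970 and, without ADAM15, 0.883. Summed inhibitor counts (0.700) gave 0.680, 0.759, 0.764 and, without TIMP2, 0.546. Summed ADAMTS counts (0.483) gave 0.523 by library totals, and summed ADAMTS-like counts (2.23) gave 1.73 by FPKM. Of single genes whose interval excluded 1, ADAM9 (0.971) and ADAM17 (0.995) changed direction with the GC trend removed. Genes whose interval included 1 also crossed it, among them MMP11 (1.09), ADAMTS7 (1.21) and ADAMTS10 (1.19) with the GC trend removed. Beyond the construction named, the cause of these shifts was not tested. Ratios of genes under about 50 counts have wide intervals, and smaller differences were not detectable there at this depth.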
